A study of Mus musculus with 72 samples.

Results

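Whole cerebellum was compared with whole cerebral cortex in 6 wild-type (Gnb5+/+) mice by RNA sequencing of total RNA. The members were the libraries titled WT_Cb (6 libraries) and WT_Co (6 libraries), chosen by title alone, so 12 of the 72 libraries of the series were used. Each mouse gave 1 library of each region, and the pairs were formed by the mouse number in the title (mice 7, 8, 15, 16, 17 and 18). All mice were males of 18 weeks on a C57BL/6J background with free access to food and water, and none carried the deletion of Gnb5 exon 3 that the rest of the study examines. Wild-type hippocampus and the cerebellum and cortex of 6 Gnb5-/- mice of the same sex and age are given only for side by side levels. Both regions were dissected whole, so each value is an average over all cells of the region, and fewer cells of a type cannot be told apart from less RNA per cell.

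The cerebellum is built around Purkinje cells, the large inhibitory neurons that are the sole output of its cortex, and granule cells, the small and very numerous glutamatergic neurons whose parallel fibres contact them. Bergmann glia, unipolar brush cells and several inhibitory interneurons complete the circuit. The cerebral cortex consists of layered glutamatergic projection neurons and of inhibitory interneurons born in the ventral forebrain, and the regions arise from different parts of the neural tube, the hindbrain and the telencephalon, under different sets of transcription factors.

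Between 38071290 and 47114533 reads were counted on genes per library. The cerebellum had between 39375969 and 47114533 and the cortex between 38071290 and 43666511, a mean difference of 0.028 on the log2 scale (SD 0.118, n = 6 mice) that was within the spread between mice (p = 0.5625, two-sided exact sign-flip permutation test). The share of reads outside genes was 16.5% in cerebellum and 14.4% in cortex on average and was higher in cerebellum in 6 of 6 mice (p = 0.03125, the smallest this exact test allows with 6 pairs). The share of multiply aligned reads was 16.6% in cerebellum and 18.4% in cortex and was higher in cortex in 6 of 6 mice (p = 0.03125, same exact test). The part of these shares in the results was not tested.

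The regions carried the markers that their labels call for. Levels are given in CPM, the reads of a gene scaled to a common library size after TMM normalization over the 12 libraries. Pcp2, a Purkinje cell protein that binds G protein alpha subunits, lay between 142 and 159 CPM (median 148) in cerebellum and between 0.0236 and 0.186 CPM (median 0.0706) in cortex. Gabra6, the GABA-A receptor subunit of granule cells, lay between 814 and 900 CPM (median 852) in cerebellum and between 0.0236 and 0.333 CPM (median 0.127) in cortex. Cbln1, the secreted granule cell protein that joins parallel fibres to Purkinje cells, lay between 632 and 823 CPM (median 723) and between 6.89 and 10.04 CPM (median 8.65). For each of the 3 genes every cerebellar library was above every cortical one. By edgeR's quasi-likelihood test, with mice as blocks and Benjamini-Hochberg adjustment over 18003 genes, the log2 fold change of cerebellum over cortex was 10.86 for Pcp2 (SE 0.11, adjusted p = 2.5e-15), 12.40 for Gabra6 (SE 0.12, adjusted p = 2.0e-15) and 6.38 for Cbln1 (SE 0.082, adjusted p = 1.1e-14). Every SE of a fold change is its absolute log2 value divided by the square root of the test's F statistic. Such an SE is too small where a region has few reads, as for Pcp2 and Gabra6 with 19 and 38 cortical reads in all. In hippocampus, Pcp2 stood at 0.0668 ± 0.0706 CPM, Gabra6 at 0.174 ± 0.22 CPM and Cbln1 at 4.88 ± 1.51 CPM (mean ± SD, n = 6), on a scale normalized over 30 libraries of 5 groups that is used for all hippocampal and Gnb5-/- levels.

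**Figure D1:**
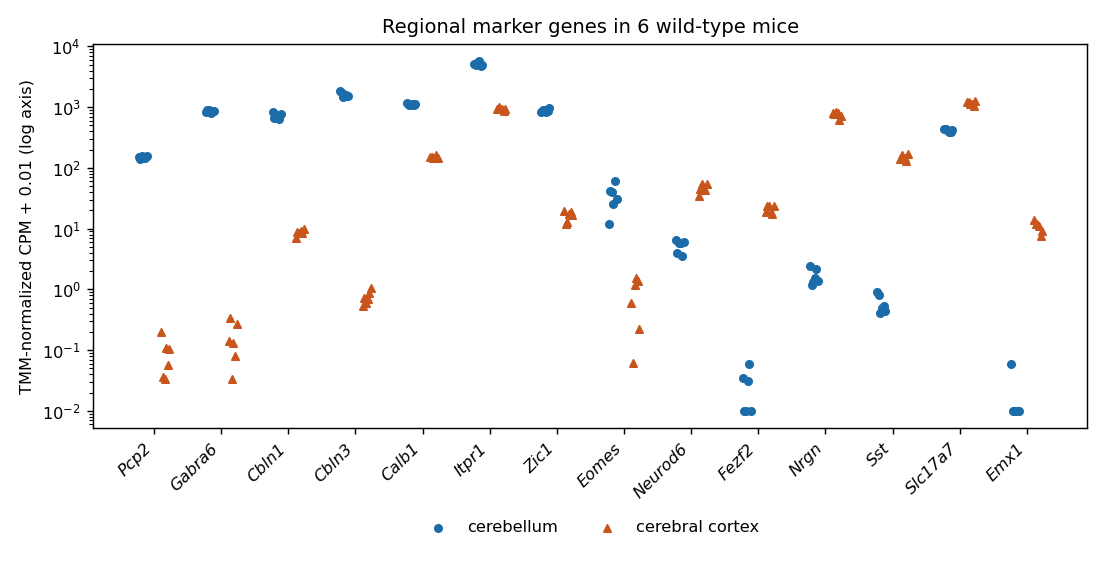
CPM plus 0.01, on a log axis, of 14 marker genes in each of the 6 cerebellar (circles) and 6 cortical (triangles) wild-type libraries. No gene's regions overlap, and Gabra6 is at 814 CPM or more in every cerebellar library and at 0.333 CPM or less in every cortical one.

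Of 18003 genes tested, 14669 (81.5%) had an adjusted p below 0.05 and are termed called. They divided into 7149 (39.7%) higher in cerebellum and 7520 (41.8%) higher in cortex. For 11009 genes (61.2%) the 6 values of one region did not overlap the 6 of the other. Since most genes were called, a gene was also tested for a change past 2-fold (edgeR's glmTreat, adjusted p below 0.05), which 4344 genes (24.1%) passed, 1556 (8.64%) higher in cerebellum and 2788 (15.5%) higher in cortex. Counts of list members given below are to be read against these shares over all genes. The median absolute log2 fold change was 0.53 over all genes and the median signed one was -0.015. Large differences lay more often on the side of cortex: 675 called genes were over 4 log2 units higher in cortex and 218 in cerebellum, and over 6 log2 units the counts were 294 and 76. The 2-fold differences held direction in all 6 mice for 4338 of the 4344 genes. These genes were selected in the same 6 mice, so this agreement follows largely from the selection. Of all 14669 called genes, 13586 held direction in all 6 mice.

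By type of gene, 7.80% of 14935 protein-coding genes passed 2-fold in cerebellum and 14.8% in cortex. Of 724 long intergenic non-coding RNAs the shares were 14.2% and 31.1%, and of 607 antisense transcripts 15.2% and 22.9%. A gene of low level passes the filter on counts if it is high in one region only, so these shares describe the genes tested. The part of the filter in the differences between types was not tested. Protein-coding genes were also divided into 5 groups of equal size by the length of the gene in the genome. The shortest group went up to 8.5 kb and the longest began at 78.9 kb. From shortest to longest, 6.70%, 6.49%, 7.16%, 8.24% and 10.4% passed 2-fold in cerebellum. In cortex the shares were 14.6%, 13.7%, 11.9%, 13.6% and 20.02%, so they did not rise steadily with length.

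The promoter windows of some genes past 2-fold in either region are shown to place these genes in the genome. RefSeq windows (build GRCm38.p6, 250 bases before to 50 after a transcription start, 5′ to 3′ on the gene's strand) were found for 69 of the 117 genes named by rule. Pcp2 was read at chr8:3625498-3625797 (minus strand, the first listed of its 4 windows), Gabra6 at chr11:42321023-42321322 (minus strand) and Cbln3, a granule cell partner of Cbln1, at chr14:55884207-55884506 (minus strand). Emx1, a homeobox factor of the dorsal telencephalon, was read at chr6:85187681-85187980 (plus strand), and Neurod6, a basic helix-loop-helix factor of forebrain projection neurons, at chr6:55681214-55681513 (minus strand). Capitals mark every match, on either strand, to 3 motifs: AGGTCA (a half-site of nuclear receptors such as RORA), CAGATG (an E-box of the kind NeuroD proteins bind) and TTGGCA (a half-site of nuclear factor I).
Pcp2: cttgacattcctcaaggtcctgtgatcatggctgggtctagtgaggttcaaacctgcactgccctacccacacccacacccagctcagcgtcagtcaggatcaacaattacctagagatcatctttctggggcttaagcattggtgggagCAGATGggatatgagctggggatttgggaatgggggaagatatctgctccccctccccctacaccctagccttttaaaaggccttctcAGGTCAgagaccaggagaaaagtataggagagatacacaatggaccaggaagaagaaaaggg
Gabra6: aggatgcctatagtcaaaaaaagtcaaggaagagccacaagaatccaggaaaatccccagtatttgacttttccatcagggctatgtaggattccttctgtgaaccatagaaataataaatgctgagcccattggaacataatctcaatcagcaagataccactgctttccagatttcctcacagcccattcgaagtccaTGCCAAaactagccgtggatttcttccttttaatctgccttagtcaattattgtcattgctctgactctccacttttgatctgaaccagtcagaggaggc
Cbln3: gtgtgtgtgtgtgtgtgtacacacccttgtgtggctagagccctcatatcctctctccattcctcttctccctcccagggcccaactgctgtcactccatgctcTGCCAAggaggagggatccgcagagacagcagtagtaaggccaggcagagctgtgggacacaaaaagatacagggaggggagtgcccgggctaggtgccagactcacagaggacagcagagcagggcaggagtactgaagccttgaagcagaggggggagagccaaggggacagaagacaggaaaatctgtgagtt
Emx1: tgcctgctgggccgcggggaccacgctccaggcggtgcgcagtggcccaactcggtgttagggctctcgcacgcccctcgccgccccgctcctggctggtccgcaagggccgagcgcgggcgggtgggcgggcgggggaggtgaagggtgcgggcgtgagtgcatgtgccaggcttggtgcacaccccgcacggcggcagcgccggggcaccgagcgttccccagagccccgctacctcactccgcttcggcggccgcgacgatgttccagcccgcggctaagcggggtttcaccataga
Neurod6: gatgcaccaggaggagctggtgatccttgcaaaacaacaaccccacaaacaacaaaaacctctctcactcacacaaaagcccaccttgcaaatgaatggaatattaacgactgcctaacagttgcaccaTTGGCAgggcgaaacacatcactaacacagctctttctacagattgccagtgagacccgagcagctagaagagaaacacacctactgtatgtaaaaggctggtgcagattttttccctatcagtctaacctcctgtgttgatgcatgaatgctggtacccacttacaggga
The Pcp2 window held AGGTCA once, with its first base at position -12 from the start, and CAGATG once, at -100. Gabra6, Cbln3 and Neurod6 each held the nuclear factor I half-site once, at -50, -146 and -121, and Emx1 held none of the 3 motifs. Such short motifs are common: of 32851 windows, 16.3% held AGGTCA, 17.2% held CAGATG and 14.1% held TTGGCA. In the windows of genes past 2-fold in cerebellum (1321 windows of 1000 genes) the shares were 16.7%, 16.2% and 15.1%, and in those of genes past 2-fold in cortex (2528 windows of 1920 genes) 12.8%, 14.7% and 12.97%. A match describes letters only and is no evidence of binding.

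Purkinje cell genes were higher in cerebellum almost without exception. Of 18 genes on the list, 17 were called higher in cerebellum and 16 passed 2-fold, and the median log2 fold change was 3.76, against -0.015 over all genes tested. Calb1, the calcium buffer calbindin, lay between 1072 and 1153 CPM (median 1108) in cerebellum and between 146 and 160 CPM (median 149) in cortex (log2 fold change 2.88, SE 0.035, adjusted p = 7.4e-15, edgeR). Itpr1, the IP3 receptor that releases calcium from the endoplasmic reticulum, lay between 4786 and 5653 CPM (median 5062) and between 859 and 1013 CPM (median 931), a log2 fold change of 2.47 (SE 0.038). Both are abundant genes that cortical neurons also express, and their groups stood well apart. The carbonic anhydrase relative Car8, which binds the IP3 receptor, reached 1495 to 1663 CPM in cerebellum and 10.1 to 12.8 CPM in cortex. The GTPase regulator Rgs8 reached 1675 to 1816 CPM and 113 to 137 CPM. Pvalb, parvalbumin, which cortical basket cells also make, lay between 345 and 389 CPM in cerebellum and between 27.3 and 40.8 CPM in cortex.

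Among the transcription factors of Purkinje cells, Lhx1 was at 72.6 to 94.5 CPM (median 84.0) in cerebellum and at 0 to 0.154 CPM (median 0.0826) in cortex, a log2 fold change of 9.86 (SE 0.14). Skor2, a corepressor of Purkinje cell development, was at 10.1 to 12.7 CPM in cerebellum and had 3 reads in all 6 cortical libraries against 2943 in the cerebellar ones, a ratio of 927 with a 95% counting interval from 317 to 4499. Ppp1r17, the G-substrate of cGMP-dependent kinase, was at 216 to 251 CPM and at 0.195 to 0.376 CPM. Foxp2 stood apart from the rest of the list: it was called higher in cortex, with 11.04 to 12.9 CPM in cerebellum and 9.75 to 20.05 CPM in cortex (log2 fold change -0.43, SE 0.12, adjusted p = 0.0070, edgeR). Foxp2 is also a gene of deep-layer cortical neurons, and its regions overlapped. Cdh20, a cadherin, was called higher in cerebellum at a log2 fold change of 0.45, within 2-fold.

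Granule cell genes moved the same way. All 18 listed genes were called higher in cerebellum and 17 passed 2-fold, with a median log2 fold change of 4.68. Cbln3 lay between 1495 and 1872 CPM (median 1548) in cerebellum and between 0.532 and 1.06 CPM (median 0.70) in cortex, a log2 fold change of 11.07 (SE 0.090). Fat2, a giant protocadherin of granule cells, lay between 1173 and 1436 CPM (median 1317) and between 0.425 and 0.984 CPM (median 0.789), a log2 fold change of 10.82 (SE 0.091). Neurod1, a factor of granule cell differentiation, lay between 305 and 364 CPM in cerebellum and between 9.999 and 11.9 CPM in cortex (log2 fold change 4.96, SE 0.052). Zic1, a zinc finger factor of granule cell precursors, lay between 832 and 960 CPM and between 11.7 and 19.6 CPM (log2 fold change 5.78, SE 0.11). The only granule cell gene within 2-fold was Rbfox3, the NeuN antigen of most neurons, at a log2 fold change of 0.49.

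Markers of the remaining cerebellar cells were mixed. Of 14 listed genes, 8 passed 2-fold in cerebellum and 2 in cortex, with a median log2 fold change of 1.55. Gdf10, a secreted factor of Bergmann glia, lay between 160 and 190 CPM (median 170) in cerebellum and between 5.62 and 8.19 CPM in cortex. Slc6a5, the glycine transporter of Golgi and other glycinergic cells, lay between 45.03 and 48.8 CPM (median 47.3) and between 0.0769 and 0.189 CPM, a log2 fold change of 8.46 (SE 0.095). Tfap2b, a factor of molecular layer interneurons, lay between 70.4 and 80.9 CPM and between 0.943 and 2.10 CPM. These 3 genes varied little between mice. Eomes, the marker of unipolar brush cells, varied more: it ranged from 12.03 CPM in mouse 15 to 60.0 CPM in mouse 7 (median 35.6) in cerebellum and from 0.0513 to 1.53 CPM in cortex (log2 fold change 5.4, SE 0.30, adjusted p = 5.5e-09, edgeR). Nxph1 and Grm2, which cerebellar interneurons share with many forebrain neurons, passed 2-fold in cortex at log2 fold changes of -1.23 and -1.20.

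Patterning factors of the hindbrain persisted in the adult cerebellum. Of 28 listed genes, 19 had enough reads to be tested, 18 of these passed 2-fold in cerebellum and 1 in cortex, and the median log2 fold change was 5.58. The filter on low counts keeps a gene that is high in one region only, so these shares describe the 19 genes and not the whole list. En2, a homeobox gene of the midbrain and hindbrain boundary, lay between 86.3 and 109 CPM (median 99.4) in cerebellum and between 0.236 and 0.487 CPM in cortex (log2 fold change 8.18, SE 0.091). Its relative En1 was low, at 0.848 to 1.92 CPM in cerebellum and 0 to 0.0730 CPM in cortex. Cnpy1, a neighbour of En2 on chromosome 5 that takes part in FGF signalling, was among the most regional genes, at 523 to 637 CPM and 0.0708 to 0.359 CPM (log2 fold change 11.41, SE 0.11). Meis2 was the exception on this list, at 0.229 to 2.29 CPM in cerebellum and 113 to 150 CPM in cortex, and it is also a factor of striatal and other forebrain neurons. Atoh1 and Ptf1a, which specify glutamatergic and GABAergic cerebellar neurons in the embryo, were below the filter, with 3 and 7 reads in all cerebellar libraries and 0 and 2 in all cortical ones.

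Telencephalic factors showed the reverse. Of 16 listed genes, 15 were called higher in cortex and 11 passed 2-fold there, with none past 2-fold in cerebellum and a median log2 fold change of -6.73 (-6.55 with 3 genes of 3 or fewer cerebellar reads set at their read ratio or its bound). Lhx2, a selector of cortical identity, lay between 53.4 and 69.3 CPM (median 60.2) in cortex and at 0 to 0.0748 CPM in cerebellum (log2 fold change -10.66, SE 0.14). Emx1 lay between 7.43 and 13.7 CPM in cortex and had 2 reads in cerebellum, both in mouse 15, against 2641, a ratio of 1397 with a 95% counting interval from 386 to 11541. The intervals cover counting error only. Id2, an inhibitor of helix-loop-helix factors, was the 1 gene of this list called higher in cerebellum (log2 fold change 0.58).

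Genes of cortical excitatory neurons were higher in cortex for 19 of 22 listed genes, 18 of them past 2-fold, with a median log2 fold change of -4.86. Fezf2, which specifies corticospinal neurons, lay between 17.4 and 23.6 CPM in cortex and between 0 and 0.0490 CPM in cerebellum (log2 fold change -10.14, SE 0.19). Nrgn, neurogranin, a calmodulin-binding protein of spines, lay between 618 and 828 CPM (median 790) and between 1.17 and 2.40 CPM (log2 fold change -8.85, SE 0.12). Camk2a, the alpha subunit of calcium/calmodulin kinase II, was the most abundant gene of the list in CPM, between 3712 and 4353 (median 4161) in cortex and between 108 and 118 in cerebellum (log2 fold change -5.19, SE 0.038, adjusted p = 7.0e-16, edgeR).

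Layer markers differed in how far they separated the regions. Rorb, of layer 4, lay between 31.7 and 42.2 CPM in cortex and between 8.04 and 11.2 CPM in cerebellum (log2 fold change -1.96, SE 0.066). Cux2, of the upper layers, lay between 118 and 152 CPM and between 43.2 and 55.4 CPM (log2 fold change -1.44, SE 0.051). Neurod2 and Cux1 were called higher in cerebellum, at log2 fold changes of 0.95 and 0.35, although both mark cortical projection neurons, and Pcdh20 was not called (log2 fold change -0.02, adjusted p = 0.80, edgeR). Neurod6 lay between 34.9 and 55.3 CPM (median 47.2) in cortex and between 3.55 and 6.57 CPM in cerebellum, and at 184 ± 17.9 CPM in hippocampus (mean ± SD, n = 6), above every cortical library.

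Some of the 10 genes named for the largest differences toward cortex belonged to none of the cell type lists. Ddn, dendrin, a dendritic protein of forebrain neurons, lay between 1298 and 1518 CPM (median 1422) in cortex and between 0.150 and 2.57 CPM (median 0.321) in cerebellum (log2 fold change -10.95, SE 0.29), the highest cerebellar value being that of mouse 15. Kcnv1, a silent potassium channel subunit, lay between 93.8 and 110 CPM and between 0 and 0.296 CPM (log2 fold change -10.31, SE 0.21). Ddn was higher again in hippocampus, at 2451 ± 180 CPM, while Kcnv1 was at 43.9 ± 4.07 CPM there.

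Of 20 forebrain interneuron genes, 16 were called higher in cortex, all past 2-fold, and 4 higher in cerebellum, 1 of them past 2-fold. The median log2 fold change was -6.78. It was the same with 4 genes of 3 or fewer cerebellar reads set at their read ratio or its bound. Sst, somatostatin, lay between 130 and 170 CPM (median 146) in cortex and between 0.397 and 0.889 CPM in cerebellum (log2 fold change -8.00, SE 0.10). Vip lay between 32.6 and 41.9 CPM in cortex, with 9084 reads against 11 in cerebellum. The homeobox genes Dlx6 and Dlx2, which act in interneuron precursors, had 1819 and 752 cortical reads and 0 in cerebellum, so they were at least 641-fold and 265-fold higher in cortex at a floor of 3 reads over the 6 cerebellar libraries. Npy and Cck, peptides that other cells also make, differed less, with log2 fold changes of -3.12 (SE 0.085) and -3.45 (SE 0.083). Prox1, a factor shared by some cortical interneurons and by other neurons, passed 2-fold in cerebellum, at 59.9 to 101 CPM against 14.5 to 16.9 CPM in cortex. The inhibitory machinery common to all GABAergic cells differed little: Gad1, which makes GABA, was higher in cerebellum by a log2 fold change of 0.69 (SE 0.040) and Slc32a1, which loads it into vesicles, by 0.30 (SE 0.054), while Gad2 was higher in cortex (log2 fold change -0.30, SE 0.056).

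**Figure D2:**
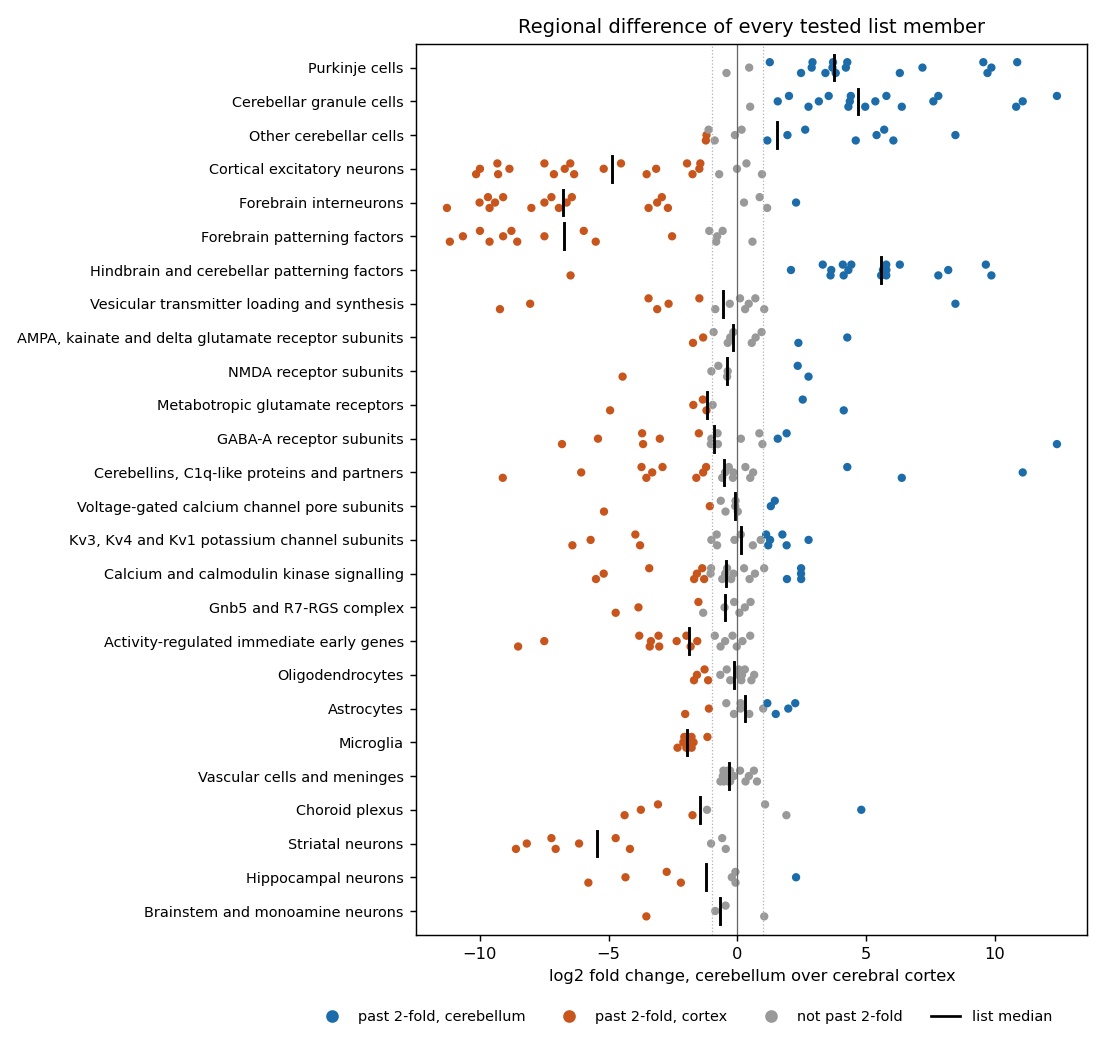
Log2 fold change of cerebellum over cerebral cortex for every tested member of 26 gene lists, 1 point per gene, coloured by whether it passed a 2-fold change (dotted lines at log2 values of -1 and 1), with the median of each list as a black bar. Purkinje, granule and hindbrain genes lie to the right, cortical, interneuron and telencephalic genes to the left, and vascular genes near 0. Members near 0 reads in one region have fitted values that depend on the small prior count that edgeR adds by default.

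Both regions hold glutamatergic neurons, with the same main vesicular transporter at different levels and with different receptor subunits. Of 14 genes of transmitter synthesis and loading, 1 passed 2-fold in cerebellum (Slc6a5, given above) and 6 in cortex, with a median log2 fold change of -0.58. Slc17a7, the vesicular transporter of cortical and granule cells, lay between 1048 and 1247 CPM (median 1169) in cortex and between 392 and 437 CPM (median 419) in cerebellum (log2 fold change -1.48, SE 0.030). Per kilobase of annotated exon it made up 98.5% ± 0.967 of the 3 vesicular glutamate transporters in cerebellum and 97.0% ± 0.286 in cortex (mean ± SD, n = 6). Slc17a6, the transporter of the deep nuclei, thalamus and brainstem, lay between 28.1 and 34.6 CPM in cortex. In cerebellum it was spread over 0.527 CPM in mouse 16, 3.15 in mouse 17, 4.69 in mouse 15, 5.14 in mouse 18, 10.1 in mouse 7 and 11.1 in mouse 8. The cerebellar values differed widely between mice but stayed below every cortical one, and the difference passed 2-fold (log2 fold change -2.67, SE 0.32, adjusted p = 7.7e-06, edgeR). Chat, the acetylcholine-making enzyme, had 1018 reads in cortex and 1 in cerebellum, a ratio of 1077 with a 95% counting interval from 193 to 42577.

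The NMDA receptor subunits differed in which of them led. Of 7 subunits, 2 passed 2-fold in cerebellum and 1 in cortex (median log2 fold change -0.40). Each family below is also given as shares of its summed CPM per kilobase of annotated exon, which adjusts for annotated length. That length covers every annotated exon of a gene, and which exons these tissues use was not tested. The order of genes within a region therefore depends on the annotation. Grin2b, the subunit with slow kinetics, lay between 568 and 683 CPM (median 654) in cortex and between 27.4 and 32.5 CPM (median 29.2) in cerebellum (log2 fold change -4.46, SE 0.038, adjusted p = 1.0e-15, edgeR). Grin2c, the granule cell subunit, lay between 502 and 608 CPM (median 529) in cerebellum and between 66.8 and 87.6 CPM (median 81.7) in cortex, a log2 fold change of 2.76 (SE 0.046). Per kilobase, Grin2c made up 91.9% ± 0.528 of the 4 GluN2 subunits in cerebellum and 27.7% ± 1.53 in cortex, and Grin2b 1.02% ± 0.083 and 45.5% ± 1.52 (mean ± SD, n = 6). Grin1, the subunit that every NMDA receptor needs, differed by a log2 fold change of -0.40 only. Grin2a was called higher in cortex (log2 fold change -1.01, SE 0.040) without passing 2-fold (adjusted p = 0.61, edgeR's glmTreat).

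Of 11 AMPA, kainate and delta receptor subunits, 2 passed 2-fold in each direction (median log2 fold change -0.16). Gria4, a fast subunit of granule cells and Bergmann glia, lay between 633 and 758 CPM (median 698) in cerebellum and between 125 and 144 CPM (median 131) in cortex (log2 fold change 2.36, SE 0.034). Per kilobase its share of the 4 AMPA subunits was 39.4% ± 1.05 in cerebellum and 11.8% ± 0.705 in cortex. Gria2, whose edited form keeps calcium out, had shares of 16.2% ± 0.930 and 30.3% ± 1.35. Gria1 differed little in share, at 38.5% ± 1.3 and 40.5% ± 2.17, and in level by a log2 fold change of 0.56. Grid1, a delta receptor, was higher in cortex (log2 fold change -1.33, SE 0.047).

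Metabotropic glutamate receptors divided in the same manner. Grm5, a postsynaptic receptor coupled to calcium release, lay between 6.28 and 8.82 CPM in cerebellum and between 212 and 249 CPM (median 224) in cortex (log2 fold change -4.94, SE 0.048). Grm4, the presynaptic receptor of parallel fibres, lay between 532 and 645 CPM in cerebellum and between 28.8 and 39.0 CPM in cortex (log2 fold change 4.13, SE 0.054). Of the 7 members tested, 2 passed 2-fold in cerebellum and 4 in cortex, a median log2 fold change of -1.20.

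GABA-A receptors were told apart by their alpha subunits. Per kilobase Gabra6 made up 75.4% ± 1.07 of the 6 alpha subunits in cerebellum and 0.0447% ± 0.0334 in cortex. Gabra3 lay between 163 and 191 CPM (median 175) in cortex and between 11.2 and 17.3 CPM in cerebellum (log2 fold change -3.66, SE 0.064). Gabra5, an extrasynaptic subunit, lay between 45.4 and 60.1 CPM in cortex and between 0.281 and 0.588 CPM in cerebellum (log2 fold change -6.81, SE 0.098), and at 205 ± 9.89 CPM in hippocampus. Gabrd, the delta subunit that joins alpha 6 in tonic inhibition of granule cells, lay between 222 and 253 CPM in cerebellum and between 72.7 and 85.1 CPM in cortex (log2 fold change 1.56, SE 0.047). Over the whole family, 3 of 16 tested members passed 2-fold in cerebellum and 6 in cortex (median log2 fold change -0.89).

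The cerebellins, secreted C1q-like organizers of synapses, formed 2 pairs. Cbln1 and Cbln3 took 41.8% ± 2.57 and 58.1% ± 2.56 of the 4 cerebellins per kilobase in cerebellum and 12.5% ± 1.68 and 0.670% ± 0.208 in cortex. Cbln2 and Cbln4 took 53.2% ± 3.00 and 33.7% ± 1.41 in cortex and at most 0.0319% in any cerebellar library. Cbln2 lay between 30.6 and 43.6 CPM in cortex and between 0 and 0.115 CPM in cerebellum (log2 fold change -9.11, SE 0.16), and Cbln4 between 19.8 and 26.2 CPM and between 0.0836 and 0.593 CPM (log2 fold change -6.06, SE 0.19). The family summed to 570 CPM per kilobase in cerebellum and 23.0 in cortex. With their C1q-like relatives and receptors, 3 of 20 genes passed 2-fold in cerebellum and 9 in cortex (median log2 fold change -0.54). Their presynaptic partners Nrxn2 and Nrxn3, neurexins, stayed within 2-fold, at log2 fold changes of -0.18 and 0.61.

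**Figure D3:**
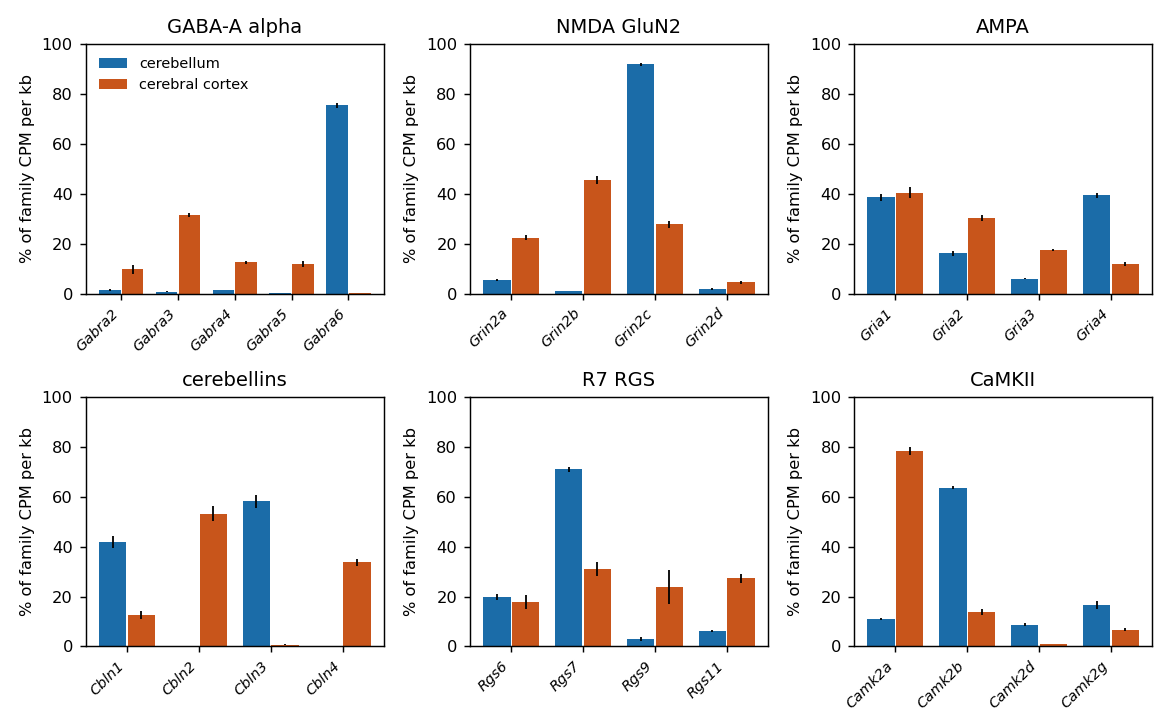
Share of subunits in their family's summed CPM per kilobase of exon, in percent, as the mean of 6 cerebellar (blue) and 6 cortical (orange) libraries, with error bars of 1 SD. Not every member of the GABA-A family is drawn. Gabra6, Grin2c, Gria4, Cbln3, Rgs7 and Camk2b have larger shares in cerebellum than in cortex, and Gabra3, Grin2b, Cbln2, Rgs9 and Camk2a larger shares in cortex.

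Kv3 potassium channels, which let neurons fire fast, divided by member. Kcnc1 lay between 819 and 932 CPM in cerebellum and between 226 and 253 CPM in cortex (log2 fold change 1.91, SE 0.030). Kcnc2, the Kv3 channel of cortical fast-spiking interneurons, took the other direction, at 1.56 to 4.41 CPM in cerebellum and 127 to 148 CPM in cortex. Of the 17 Kv3, Kv4 and Kv1 genes with their KChIP partners, 6 passed 2-fold in cerebellum and 4 in cortex, a median log2 fold change of 0.13. Kcnip2, a KChIP partner of Kv4 channels, was at 1.33 to 2.47 CPM in cerebellum and 159 to 197 CPM in cortex (log2 fold change -6.41, SE 0.10).

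The P/Q-type calcium channel Cacna1a, which carries most calcium current of Purkinje cells, lay between 560 and 594 CPM (median 582) in cerebellum and between 209 and 248 CPM (median 243) in cortex (log2 fold change 1.29, SE 0.031). Among T-type channels Cacna1g lay between 382 and 424 CPM and between 133 and 155 CPM (log2 fold change 1.45, SE 0.031), while Cacna1h lay between 2.26 and 3.56 CPM and between 88.4 and 117 CPM (log2 fold change -5.18, SE 0.080). Per kilobase, Cacna1h was 0.551% ± 0.0858 of the 3 T-type genes in cerebellum and 25.5% ± 1.56 in cortex. Of 9 calcium channel pore subunits tested, 2 passed 2-fold in each direction (median log2 fold change -0.084), and Cacna1c and Cacna1s were not called (adjusted p = 0.12 and 0.96, edgeR).

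Calcium signalling downstream of these channels differed in composition, and of its 22 listed genes 4 passed 2-fold in cerebellum and 7 in cortex (median log2 fold change -0.44). Camk2a was 10.95% ± 0.463 of the 4 CaMKII genes per kilobase in cerebellum and 78.3% ± 1.55 in cortex, and Camk2b 63.6% ± 0.720 and 13.9% ± 1.14. In level Camk2b differed by a log2 fold change of -0.16 only (SE 0.031), and its regions overlapped. Camk4, the nuclear kinase of granule cells, lay between 957 and 1213 CPM in cerebellum and between 273 and 315 CPM in cortex (log2 fold change 1.92, SE 0.042). The phospholipases that feed the IP3 receptor were split: Plcb4 lay between 410 and 446 CPM in cerebellum and between 74.0 and 86.8 CPM in cortex, and Plcb1 between 72.3 and 93.0 CPM and between 244 and 262 CPM. Pde1a, a calmodulin-dependent phosphodiesterase, was at 3.44 to 4.45 CPM in cerebellum and 168 to 189 CPM in cortex (log2 fold change -5.49, SE 0.058).

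Gnb5, the G protein beta subunit that the study deletes, was present at like levels in both regions of wild-type mice. It lay between 134 and 158 CPM (median 146) in cerebellum and between 125 and 150 CPM (median 138) in cortex, the regions overlapped, and the log2 fold change of 0.08 (SE 0.048) did not pass the test (adjusted p = 0.16, edgeR). It passed with library totals alone in place of TMM factors (log2 fold change 0.13, adjusted p = 0.024, edgeR) and without the filter on low counts (0.10, adjusted p = 0.027). Its partners, the R7 RGS proteins that speed up G protein shut-off and are unstable without it, were unequal, and 3 of the 9 genes of the complex passed 2-fold, all in cortex (median log2 fold change -0.50). Rgs9 lay between 36.5 and 113 CPM (median 79.0) in cortex and between 1.63 and 4.11 CPM in cerebellum (log2 fold change -4.73, SE 0.095), Rgs11 between 52.3 and 64.5 CPM and between 3.33 and 4.71 CPM (log2 fold change -3.84, SE 0.076) and Rgs6 between 70.3 and 95.7 CPM and between 29.1 and 31.9 CPM (log2 fold change -1.51, SE 0.053). Rgs7, the most even of the 4, was higher in cortex by less than 2-fold (log2 fold change -0.50, SE 0.043) and made up 71.0% ± 1.06 of them per kilobase in cerebellum and 31.2% ± 2.76 in cortex. The membrane anchors Rgs7bp and Gpr158 were somewhat higher in cerebellum, at log2 fold changes of 0.29 (SE 0.028) and 0.51 (SE 0.043).

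Rgs9 is also the striatal member of its family, and cortical libraries held striatal genes in unequal amounts. The 10 striatal genes summed to 547 CPM in mouse 17, 752 in mouse 15, 810 in mouse 18, 928 in mouse 7, 1025 in mouse 16 and 1212 in mouse 8, and Rgs9 in the cortex of these mice was 36.5, 61.0, 72.5, 85.5, 89.1 and 113 CPM. Rgs9 is itself on that list, and the order of the 6 mice was the same for both. In cerebellum the list summed to 316 to 414 CPM. The dopamine receptor Drd1 lay between 20.3 and 50.04 CPM in cortex and between 0.146 and 0.374 CPM in cerebellum, Adora2a between 12.3 and 41.6 CPM and between 1.08 and 1.73 CPM, and Ido1, of striatal projection neurons, was at 0 in all 6 cerebellar libraries. Of the list, 7 of 10 genes passed 2-fold in cortex (median log2 fold change -5.44). The part of striatal tissue in the cortical values was not tested.

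Genes of the choroid plexus, the epithelium that secretes cerebrospinal fluid, were uneven in cortex as well. Ttr, transthyretin, stood at 6.35, 6.82 and 7.004 CPM in the cortex of mice 18, 8 and 7, and at 41.5, 140 and 270 CPM in mice 15, 17 and 16. In cerebellum it lay between 1.31 and 5.27 CPM. Its log2 fold change of -3.75 (SE 0.84) passed 2-fold in the edgeR fit (adjusted p = 0.0085) but not with robust empirical Bayes (adjusted p = 0.14) or in DESeq2 (adjusted p = 0.061). The 10 listed genes summed to 20.6 to 312 CPM in cortex and 27.2 to 36.8 CPM in cerebellum, and Kl lay between 4.25 and 17.01 CPM and between 1.91 and 2.72 CPM. Otx2, a factor that the choroid plexus shares with granule cells, was the 1 listed gene past 2-fold in cerebellum, at 10.6 to 13.4 CPM against 0.146 to 0.821 CPM. Of the 8 genes tested 4 passed in cortex, and Folr1 and Kcne2 were below the filter. Whether plexus carried along at dissection moved other genes was not tested.

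Brainstem genes summed to lower levels than hippocampal genes in both regions. The 8 hippocampal genes summed to 74.9 to 100.3 CPM in cortex and 100.2 to 143 CPM in cerebellum, where Prox1 was the only member past 2-fold, and 4 passed in cortex. Spink8, of hippocampal pyramidal cells, was at 0.585 to 1.08 CPM in cortex, 0 to 0.108 CPM in cerebellum and 16.5 ± 1.5 CPM in hippocampus. Of 12 brainstem and monoamine genes 4 could be tested and 1, Dbh, passed 2-fold in cortex, and the list summed to 4.77 to 5.73 CPM in cortex and 5.85 to 8.86 CPM in cerebellum. Phox2a, of brainstem autonomic neurons, had 0 reads in cerebellum.

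Activity-regulated genes were higher in cortex, but not all of them. Of 18 immediate early genes, 15 were called higher in cortex, 11 past 2-fold, and 1 in cerebellum, with a median log2 fold change of -1.90. Over all genes tested, 41.8% were called higher in cortex, 15.5% past 2-fold, and 39.7% were called higher in cerebellum. Arc, which moves to active synapses, lay between 83.4 and 537 CPM (median 303) in cortex and between 16.4 and 21.1 CPM (median 18.2) in cerebellum (log2 fold change -3.81, SE 0.30, adjusted p = 1.3e-07, edgeR). Egr1, a zinc finger factor, lay between 294 and 458 CPM and between 33.1 and 60.4 CPM (log2 fold change -3.06, SE 0.10). The related Egr3 had the largest difference, 158 to 246 CPM in cortex and 0.249 to 1.04 CPM in cerebellum (log2 fold change -8.51, SE 0.12). Npas4, induced by calcium entry alone, lay between 14.5 and 61.3 CPM and between 5.98 and 14.5 CPM (log2 fold change -1.82, SE 0.18), and the regions overlapped.

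Of the other 3 genes, Ier2 was called higher in cerebellum, at 7.28 to 15.2 CPM against 3.74 to 12.95 CPM in cortex (log2 fold change 0.50, SE 0.11, adjusted p = 0.0012, edgeR), and Dusp1, a phosphatase of MAP kinases, was not called (log2 fold change 0.19, adjusted p = 0.063). Fos, a subunit of the AP-1 factor, was not called either. In cerebellum it stood at 7.88 CPM in mouse 8, 20.5 in mouse 17, 33.1 in mouse 18, 72.3 in mouse 15, 83.2 in mouse 7 and 97.4 in mouse 16. In the cortex of the same mice, in that order, it stood at 15.4, 22.4, 48.0, 70.2, 51.1 and 75.5 CPM. Mice 8 and 17 were lowest and mouse 16 was highest in both regions, and the log2 fold change of -0.03 (SE 0.16) did not pass the test (adjusted p = 0.89, edgeR) and changed sign with the scaling and the mice included. Arc in cortex was also lowest in mouse 8 (83.4 CPM) and highest in mouse 16 (537 CPM), whereas in cerebellum Arc hardly varied.

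**Figure D4:**
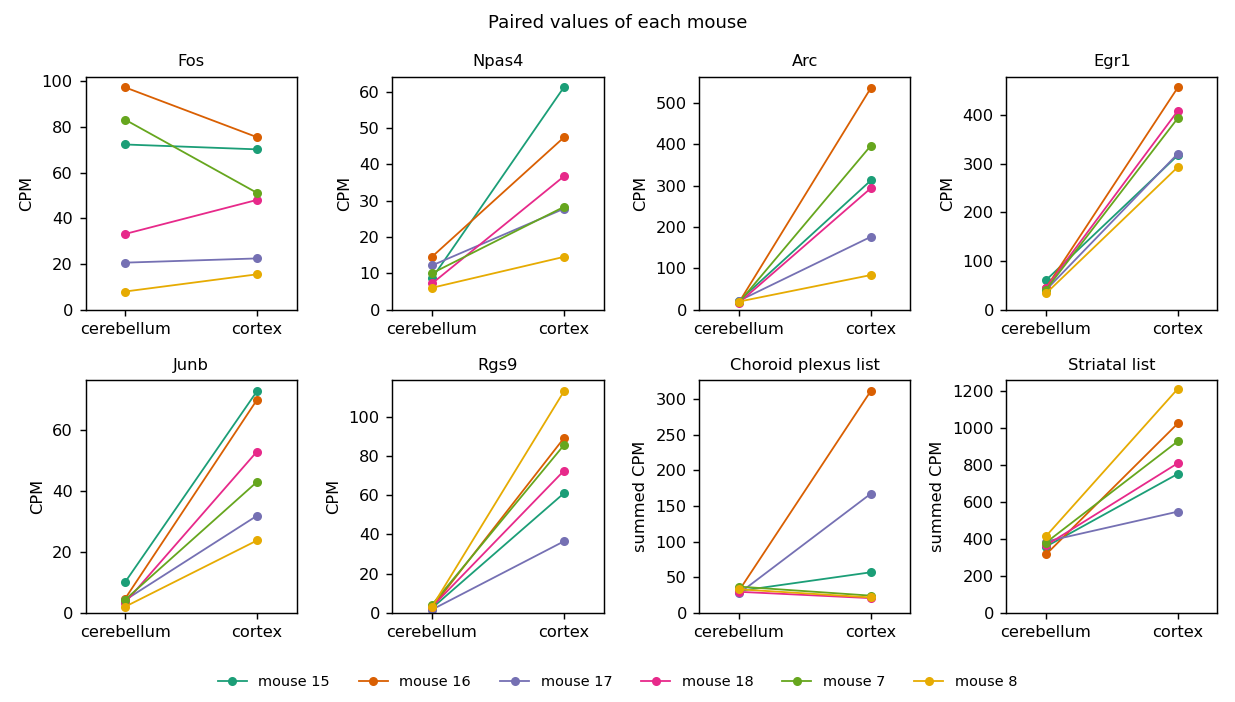
Values of each of the 6 mice in cerebellum and cortex, joined by lines, for 5 immediate early genes and Rgs9 in CPM and for the summed choroid plexus and striatal lists. Fos lines start between 7.88 and 97.4 CPM in cerebellum and go up in some mice and down in others, Arc ranges from 83.4 to 537 CPM in cortex, and the choroid plexus list is high in the cortex of mice 16 and 17.

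Of the oligodendrocyte, astrocyte, microglial and vascular lists, the microglial one had the median farthest from 0. All 12 microglial genes passed 2-fold in cortex, where the background was 15.5% of genes, with log2 fold changes from -2.33 to -1.17 and a median of -1.94. Cx3cr1, the fractalkine receptor, lay between 59.2 and 63.3 CPM (median 61.7) in cortex and between 12.98 and 15.4 CPM (median 14.3) in cerebellum (log2 fold change -2.10, SE 0.048), and P2ry12, the purinergic receptor of resting microglia, between 27.7 and 39.7 CPM and between 6.75 and 9.85 CPM. The 12 fold changes spanned a narrower range than those of any neuronal cell type list. Hippocampal levels, 55.8 ± 2.70 CPM for Cx3cr1 and 34.5 ± 2.41 CPM for P2ry12, were near those of cortex.

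Astrocyte genes went both ways, 4 of 12 past 2-fold in cerebellum and 2 in cortex (median log2 fold change 0.29). Aqp4, the water channel of endfeet, lay between 323 and 427 CPM (median 402) in cerebellum and between 123 and 157 CPM in cortex (log2 fold change 1.49, SE 0.050). Slc1a3, the glutamate transporter GLAST that is abundant in Bergmann glia, lay between 1630 and 1832 CPM and between 706 and 848 CPM (log2 fold change 1.16, SE 0.042), whereas Slc1a2, the transporter GLT-1, lay between 1045 and 1191 CPM and between 4283 and 4958 CPM (log2 fold change -2.03, SE 0.033). The main glutamate transporters of astrocytes thus differed in opposite directions. S100b and Agt, angiotensinogen, passed 2-fold in cerebellum (log2 fold changes 1.97 and 2.24). Gfap was higher in cortex (log2 fold change -0.43, SE 0.066) with overlapping regions, and Aldh1l1 differed by -0.14, a call that was lost with library totals alone and without mouse 17 or mouse 18.

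Genes of mature oligodendrocytes were nearly even, and the median log2 fold change of 14 oligodendrocyte lineage genes was -0.12. Mbp lay between 1311 and 1814 CPM (median 1561) in cerebellum and between 1267 and 1534 CPM (median 1346) in cortex (log2 fold change 0.15, SE 0.044, adjusted p = 0.0075, edgeR), and the call was lost without the block on mice. Mog was not called (log2 fold change 0.03, adjusted p = 0.62, edgeR). The 4 list members past 2-fold, all in cortex, were the progenitor genes Pdgfra, Cspg4, Olig1 and Olig2, with log2 fold changes of -1.69, -1.57, -1.28 and -1.14. Olig1 and Olig2 are also expressed by mature cells. None of 16 vascular and meningeal genes passed 2-fold, against 24.1% of all genes tested (median log2 fold change -0.31). Of the 16, 4 were called higher in cerebellum and 10 in cortex, where 39.7% and 41.8% of all genes were. The share called in either direction was thus near the 81.5% over all genes. Cldn5, of the endothelial barrier, was higher in cortex (log2 fold change -0.57, SE 0.065) with overlapping regions, Col1a2, a collagen of meningeal fibroblasts, was higher in cerebellum (0.76, SE 0.092), and Col1a1 was not called (0.10, adjusted p = 0.47, edgeR).

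The regional difference was measured a second time in 6 Gnb5-/- mice, whose Gnb5 stood at 20.2 ± 1.20 CPM in cerebellum and 16.1 ± 2.07 CPM in cortex (mean ± SD, n = 6) against 145 ± 8.24 and 136 ± 9.19 CPM in the wild type. The share of reads outside genes was 8.02% in the cerebellum of mouse 12, 6.86% in the cortex of mouse 14 and 8.32% in the cortex of mouse 3, below the other libraries. All 1556 genes past 2-fold in wild-type cerebellum had the same sign in Gnb5-/- mice and 1141 (73.3%) passed 2-fold there, with medians of 1.92 in both genotypes. Of the genes past 2-fold in wild-type cortex, 2787 could be tested in both genotypes, 2786 had the same sign, and 2246 (80.6%) passed, with medians of -2.37 and -2.32. Dependence of the regional difference on genotype was tested by edgeR's test of the interaction, with mice as blocks. At an adjusted p below 0.05 it called 1 of 18904 genes (0.00529%). In that fit 376 genes had an unadjusted p below 0.05, fewer than the 1 in 20 that chance alone gives. Without Gnb5-/- mice 3, 12 and 14, a choice made after the data were seen, 2340 of 19394 genes did. The few calls therefore do not show that the regional differences were alike in both genotypes.

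The 1 gene called was Mns1, a coiled-coil protein of cilia and sperm flagella at 72438011 to 72462025 on chromosome 9, the chromosome of Gnb5 (75306288 to 75345876, GRCm38). In wild-type mice it was low in both regions, at 1.56 to 2.40 CPM in cerebellum and 1.20 to 1.86 CPM in cortex, and its regional difference was not called (log2 fold change 0.18, adjusted p = 0.28, edgeR). In Gnb5-/- mice it stood at 0.905 ± 0.383 CPM in cerebellum and 4.98 ± 0.623 CPM in cortex, a log2 fold change of -2.52 (SE 0.23). The difference of these differences was -2.72 (SE 0.32, adjusted p = 0.024, edgeR). The call was lost when the Gnb5-/- and wild-type mice of replicate 1, 3, 4, 5 or 6 were left out, and each of these fits called 0 genes. Without replicate 2 the fit called 1 gene. DESeq2 called 12 genes, and 7 were called without Gnb5-/- mice 3, 12 and 14, a choice made after the data were seen.

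The next genes by p were Gm10635, Dclk3 and Ppm1m on chromosome 9 and Kcnh3 on chromosome 15, with adjusted p between 0.19 and 0.76. Dclk3, a kinase of the doublecortin family, lay at 2.70 ± 0.990 CPM in wild-type and 8.67 ± 1.28 CPM in Gnb5-/- cerebellum, and at 45.1 ± 3.76 and 50.5 ± 4.89 CPM in cortex. Gm10635, a predicted gene, was at 1.94 ± 0.648 CPM in wild-type and 0.142 ± 0.106 CPM in Gnb5-/- cortex. Kcnh3, a potassium channel of forebrain neurons, was higher in cortex in both genotypes, at log2 fold changes of -6.28 and -5.26. Among the regional markers, Gabra6 had log2 fold changes of 12.46 in wild-type and 10.02 in Gnb5-/- mice, where it reached 6.69 CPM in 1 cortical library, and the difference between genotypes was not called. Gabra6 was not alone in this: Cbln3, Fat2 and Pcp2 reached 14.7, 7.77 and 1.20 CPM in Gnb5-/- cortex. Their highest values in wild-type cortex were 1.05, 0.971 and 0.184 CPM. Tfap2b went the other way, with highest values of 1.89 CPM in Gnb5-/- and 2.07 CPM in wild-type cortex.

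**Figure D5:**
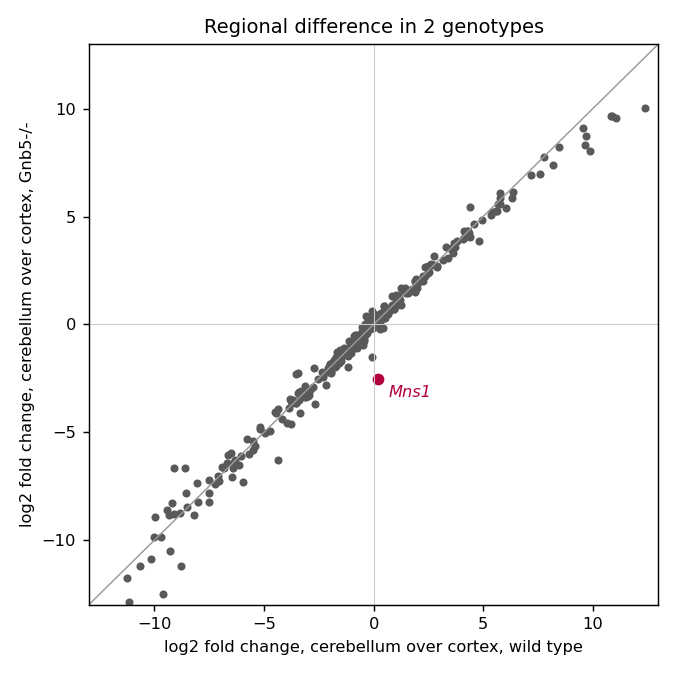
Log2 fold change of cerebellum over cortex in 6 Gnb5-/- mice against that in 6 wild-type mice, for each tested list member (grey) and Mns1 (red), with the line of equality. Mns1 lies off the line at 0.18 in the wild type and -2.52 in Gnb5-/- mice. Some list members lie off it as well, such as Gabra6 at 12.40 and 10.02 and Spink8 at -4.35 and -6.30.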

How the data were processed

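RNA was extracted by the authors with QIAzol from dissected brain regions, and stranded libraries were made from total RNA. Per the study's methods, reads were trimmed with Cutadapt 1.8, aligned to GRCm38 with STAR 2.5.3a and counted per Ensembl gene with HTSeq 0.9.1, so the deposited values are raw read counts per gene and library. The closing summary rows of each table were left out of library sizes and tests, and reads outside genes are given as a share of the total. Of 53715 gene identifiers, 53620 were matched to symbols, and 95 were not named.

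Counts were tested with edgeR 4.0.16 (R 4.3.3): TMM factors, filterByExpr with a minimum count of 10, mouse and region as terms, a quasi-likelihood test and Benjamini-Hochberg adjustment, with glmTreat for changes past 2-fold. The genotype test fitted 24 libraries with region, genotype, their interaction and mouse. The 6 pairs come from the mouse numbers in the labels. Libraries of the same mouse deviated together from their group means (r between 0.34 and 0.41 over 18003 genes, and 6 of 6 mice matched best with themselves). Library measures were compared by an exact sign-flip test. Shares within a family are of CPM per kilobase of summed annotated exons. Fitted fold changes of genes with few reads depend on the small prior count that edgeR adds by default. For this reason genes with 3 or fewer reads in one region are given as read ratios with 95% intervals, or as bounds at 3 reads. A prior count of 2 entered only the log2 CPM used for overlap, direction in each mouse and the correlation of same-mouse libraries. Intervals cover counting error only. Promoter windows are RefSeq's (GRCm38.p6).

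The 26 gene lists and the members were chosen with earlier results of these data known. Named genes are the anchors of each list, the 10 protein-coding genes with the largest 2-fold calls in each direction at a mean of 10 CPM or more, the 5 genes of smallest p in the genotype test and the exceptions within a list. Some genes of the lists are not reported here singly, though they stay in the counts and medians. Other list members named were chosen after their values were seen. Alternatives were other normalization factors, other count filters, DESeq2 1.42.0, robust empirical Bayes, no block, the 3 wild-type brain regions in 1 fit and leaving out each mouse. One more, without 3 Gnb5-/- mice, was chosen after seeing the data. The fits were tested on simulated counts.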

Additional observations from a re-analysis of the deposited data

Results flagged for a closer look

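For each gene reported here by the naming rule the highest and lowest of the 6 values of a region were set against the rest, and a value was singled out when its gap to its neighbour, as a share of the whole range, exceeded the 95% critical value of Dixon. This happened in 17 of 220 sets of 6 values, where chance alone gives about 1 in 20 for independent, normally distributed values. That rate is a rough guide only, since the sets share the same 12 libraries and some rest on few reads. The Emx1 set below holds 2 reads in all. The cerebellum of mouse 15 held 5 of them. It was high for the forebrain genes Emx1 (0.0494 CPM, the other mice at 0), Ddn (2.57 CPM) and Gm11549 (0.123 CPM) and for the immediate early gene Junb (10.1 CPM), and low for the peptide gene Npy (4.72 CPM). These forebrain levels were far below those of cortex.

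In the cortex of mouse 7, Gria3 was high (331 CPM) and the calcium channel genes Cacna1a (209 CPM) and Cacna1g (133 CPM) were low. In that of mouse 17, C1ql3 was high (75.6 CPM) and Kcna1 (62.6 CPM) and Plcb1 (244 CPM) were low. In that of mouse 16, Slc17a6 was low (28.1 CPM) and Rgs11 high (64.5 CPM), and in that of mouse 18 En1 was high (0.0730 CPM). In cerebellum, Gabrd (253 CPM) and Mns1 (2.40 CPM) were high in mouse 17 and Camk4 was low in mouse 7 (957 CPM).

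The regional difference of Mns1 differed between genotypes, by -2.72 on the log2 scale (Gnb5-/- minus wild type, SE 0.32), in the test of the interaction.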

How the results depend on the processing

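The log2 fold changes of the 117 genes named by rule were recomputed under the alternatives, beside the counts given here. Of these values, 1713 kept their direction and side of the threshold, 7 changed sign, 2 gained and 5 lost a call. A call here is an adjusted p below 0.05 in the test of any difference, and 2-fold calls were not scored. With 10 counts in every library only 89 of the 117 genes could be compared. Called genes numbered from 13990 (DESeq2) to 15092 (3 regions in 1 fit) when the filter was kept, and 16496 of 33039 without it. With 10 counts in every library, 15410 genes could be tested, and 2854 passed 2-fold, 1765 of them higher in cortex. DESeq2 gave 3696 past 2-fold, and leaving out each mouse 4247 to 4365. With library totals alone the split of calls was 7659 higher in cerebellum and 7069 in cortex. Without the block on mice, 14002 genes were called, 13964 of them also called with it, and 4191 passed 2-fold, 4181 of them shared. Genes whose regional difference depended on genotype numbered 2 without the block, 12 in DESeq2, 7 without Gnb5-/- mice 3, 12 and 14, and 0 to 1 when each replicate was left out. The log2 fold change of Fos changed sign, to 0.025 with library totals alone, 0.0020 without the filter and 0.15 without the block, and from -0.18 to 0.11 over the fits that left out a mouse. Over those fits the log2 fold change of Mog ranged from -0.017 to 0.081 and the log2 fold change of Col1a1 from -0.011 to 0.22. The causes were not tested. Depth limits the genes at or near 0 reads in one region, whose difference is known only as a read ratio or a bound.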
